A study of Solanum tuberosum with 12 samples.

Results

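The list of potato miRNA candidates held 23 distinct mature sequences of 24 nt that occurred, base for base, in 2 or more entries. An entry is a locus, that is a predicted hairpin precursor at 1 position of the genome, and the 23 sequences accounted for 61 of the 324 loci on the list (18.8%). They were chosen by length and by identity of the mature sequence alone, so neither is a finding. They made up 61 of the 159 loci with a 24 nt sequence (38.4%) and 23 of the 121 distinct 24 nt sequences (19.0%, 95% Wilson interval 13.0 to 26.9%). Small RNAs had been sequenced from 12 libraries of Solanum tuberosum group Andigena, clone ADG573, all from plants raised for several weeks in a glasshouse under long days (LD) before transfer to LD or short day (SD) cabinets. The groups were SD swollen stolon, SD stolon, SD leaf and LD leaf, with 3 biological replicates each. The labels give 8 days after the transfer for every group, while the methods name later days for stolons, and this difference was not resolved. The list pools all libraries, with 1 read number per sequence, and read numbers by tissue were not used here, so tissues and day lengths are not compared. All plants were of 1 clone, and loci were placed on superscaffolds (assembled pieces of chromosomes) of another potato, DM, so a locus is a position in DM.

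In plants, 24 nt small RNAs are the usual product of DICER-LIKE 3, which cuts long double-stranded RNA made from transposons and other repeats, and in Arabidopsis many of them are bound by ARGONAUTE 4 and guide DNA methylation to the matching sequence. Canonical miRNAs are mostly shorter and are cut by DICER-LIKE 1 from an imperfect hairpin, in which the mature strand pairs with a partner called the star strand on the other arm. Inverted repeats, in which a stretch of DNA is followed by its own reverse complement, also fold into hairpins.

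The sequences that the results turn on are the 6 with at least 4 loci or the highest read numbers, the 6 whose loci overlap on opposite strands, the 2 with loci on both hairpin arms, and the first of those with a single read. They are written 5′ to 3′ as in the list, with T for U, and capitals mark bases 2 to 8, the seed.
PotatoMir1005377443: tGAACAAGtagacacatgcgtcct
PotatoMir1002426404: aTACCGAActttggaaatgacctt
PotatoMir1005935486: tTGGAGGAtttgaagatttcaact
PotatoMir1002964519: aTGGTATCgtgagatgaaatcagc
PotatoMir1006225982: tTTTGGAGaatccgacacgcaccc
PotatoMir1002616581: aTATTTTAtgtggttaacttaact
PotatoMir1004218686: gAGTAATTtatgaacaagaaacct
PotatoMir1006010419: tTTAAGAAagcgacggacaatgtc
PotatoMir1002673979: aTCCAAACcgtgaacacccctacc
PotatoMir1004658046: gTTGTTTGgttgtcatgtttggga
PotatoMir1005796401: tTCCTAGTtgggatttaccttatt
PotatoMir1006175678: tTTTAAAAatcaacgtcatatctt
PotatoMir1006031670: tTTAGAGTttaaggtttagagttt
PotatoMir1003317851: aTTTCCAGaaaagcgacggacagt
PotatoMir1003717662: cGAAGTCAcagccacaagaaggac
The 23 sequences had 23 different seeds, so none of them shared a seed with another. In 3 of them the seed was shared with entries outside the set. These were PotatoMir1005377443 with PotatoMir1005377406, PotatoMir1002132729 with PotatoMir1002132736 and PotatoMir1002132803, and PotatoMir1006225982 with PotatoMir1006226006 and the 23 nt sequence PotatoMir1006226172.

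Read numbers were uneven. PotatoMir1005377443 had 537 reads at 4 loci (95% Poisson interval 493 to 584), PotatoMir1002426404 had 502 reads at 2 loci (459 to 548), and PotatoMir1005935486 had 375 reads at 2 loci (338 to 415). These 3 sequences held 1414 of the 1728 reads of the set (81.8%), and no member lay between 375 and 65 reads. Intervals of single read numbers cover counting error only, and a read that matches several loci cannot be assigned to 1 of them.

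Among sequences with 2 loci, PotatoMir1001726600 had 65 reads, PotatoMir1002596487 had 58, PotatoMir1003317851 had 50 and PotatoMir1000869891 had 17. The next ones with 2 loci were PotatoMir1002132729 with 9 reads, PotatoMir1004218686 with 8, PotatoMir1002618508 with 6 and PotatoMir1001248178 with 4. The lowest of the sequences with 2 loci were PotatoMir1006010419 with 3 reads, PotatoMir1002673979 with 2, and PotatoMir1003717662, PotatoMir1005796401 and PotatoMir1006175678 with 1 read each. Of those with 3 loci, PotatoMir1002056149 had 35 reads, PotatoMir1003012892 had 11, PotatoMir1006031670 had 9 and PotatoMir1004658046 had 1. PotatoMir1002616581 had 17 reads at 4 loci, PotatoMir1006225982 had 6 reads at 5 loci and PotatoMir1002964519 had 10 reads at 6 loci. The pair of sequences with the most loci thus had read numbers close to the median of 9. The median was 8 reads (1 to 502) over the 15 sequences with 2 loci, which sit at the edge of the rule, and 10.5 reads (1 to 537) over the 8 with more. Ordered by reads, neighbours had overlapping intervals except between 502 and 375 reads and between 375 and 65 reads.

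**Figure D1:**
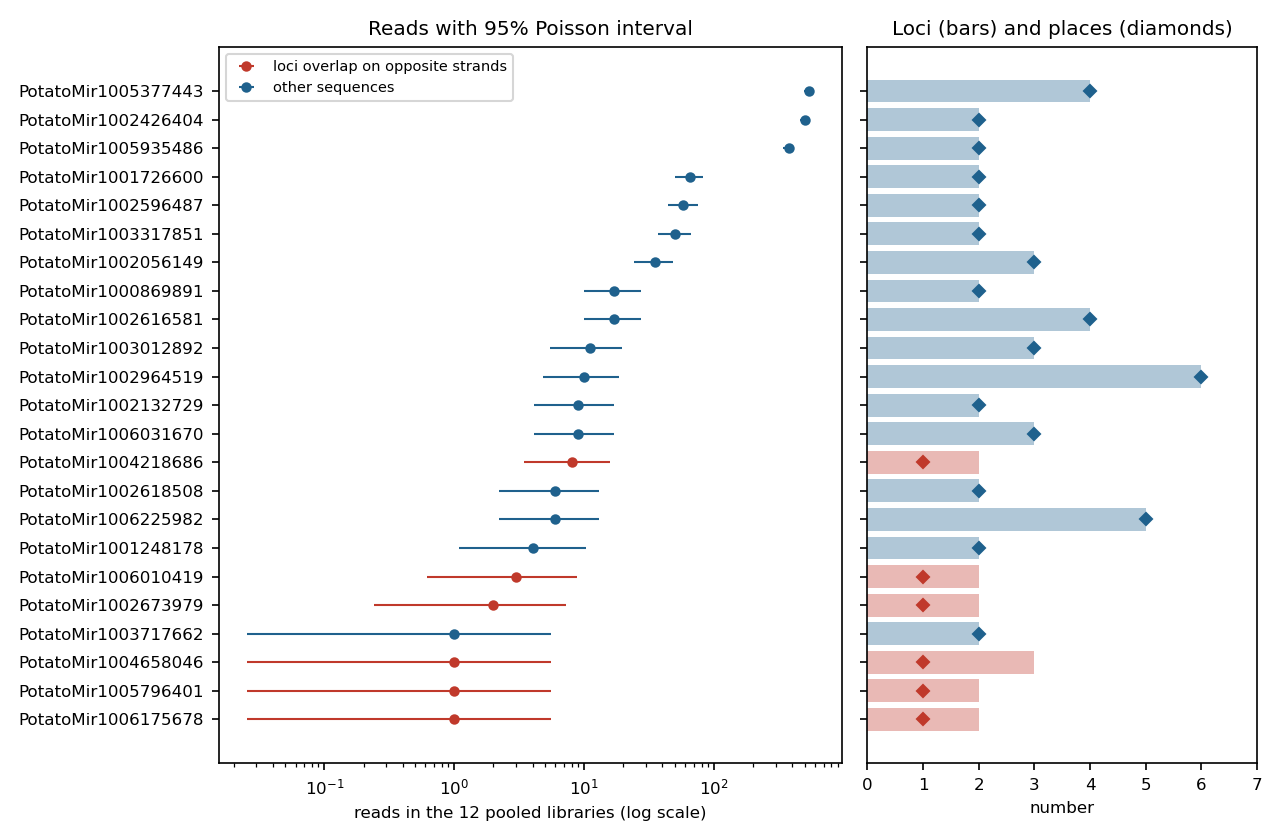
Left, reads of each of the 23 sequences in the 12 pooled libraries (log scale, points) with 95% Poisson intervals (lines); right, number of loci (bars) and of separate places after overlapping loci were joined (diamonds). The 3 highest sequences lie between 375 and 537 reads, and the 6 sequences with overlapping loci, in red, lie between 1 and 8 reads.

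The 24 nt sequences at several loci had a median of 9 reads, against 13 reads for the 98 sequences of 24 nt at 1 locus and 166.5 reads for the 20 sequences of 20 to 22 nt at several loci. Over the whole list of 222 sequences the median was 17.5 reads. The order of both 24 nt classes depended on the sequences counted. Without the 6 sequences whose loci overlap on opposite strands the median was 17 reads, above the 13 reads at 1 locus. With at least 5 reads it was 17, against 23 at 1 locus, and with at least 10 reads it was 50, against 28.5. The set held 28.7% of the reads of 24 nt candidates (1728 of 6029) and 0.181% of the reads of the list (1728 of 954147). Of the 23 sequences, 7 with 15 loci had fewer than 5 reads and 4 had 1 read, against 25 of 98 with fewer than 5 reads among sequences at 1 locus. The deposited list thus still holds sequences under the minimum of the methods, and 5 of the 6 overlapping sequences are among them. These are descriptions of 1 pooled list. No test was made, since sequences and loci are not replicates.

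The number of listed loci per sequence was small. A locus is a predicted hairpin that was kept, so these counts are not numbers of matches in the genome. 15 sequences had 2 loci, 4 had 3, 2 had 4, 1 had 5 and 1 had 6. In the 21 nt class, which holds most canonical plant miRNAs, 15 of 59 sequences (25.4%) had several loci and the highest number was 12. Several loci were found for 3 of 10 sequences of 20 nt, 2 of 18 of 22 nt and 1 of 7 of 23 nt. That 23 nt sequence, PotatoMir1006226172, lies just outside the rule with 1 read and 4 loci. Positions mapped too often were removed by the authors before prediction, so sequences of very repetitive DNA could not enter the list.

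The 61 loci lay on 51 superscaffolds, against 84 superscaffolds for the 98 loci of 24 nt sequences at 1 locus. In 16 sequences every locus was on a different superscaffold. In 6 sequences all loci were on 1 superscaffold and overlapped. The remaining sequence, PotatoMir1002616581, had 2 of its 4 loci on PGSC0003DMB000000252, with starts 122591 nt apart. Only 2 superscaffolds held loci of 2 member sequences. PGSC0003DMB000000015 held PotatoMir1003717662 and PotatoMir1005935486, and PGSC0003DMB000000117 held PotatoMir1002964519 and PotatoMir1006031670. The plus strand carried 38 loci and the minus strand 23. No gene annotation was set against these positions, so whether a locus lies in a gene is not analysed here.

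The mature sequence lay at the 5′ end of the precursor (5p arm) at 27 loci and at the 3′ end (3p arm) at 34, against 55 and 43 of the loci of 24 nt sequences at 1 locus. By sequence, 8 were on the 5p arm at every locus, 13 on the 3p arm at every locus, and 2 on both.

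Precursors had a median length of 112 nt (47 to 221), against 106 nt (49 to 226) for 24 nt sequences at 1 locus and 75 nt (42 to 164) for 20 to 22 nt sequences at several loci. The order of both 24 nt classes turned without the 13 overlapping loci, where the median was 98.5 nt, against 106 nt. It also turned with at least 5 reads, at 91 nt, against 96 nt, but not with at least 10 reads, at 99.5 nt, against 92 nt. The shortest, 47 nt at all 3 loci of PotatoMir1002056149, left 1 base between mature and star. The longest, 221 nt, was that of PotatoMir1005796401 at both of its loci. In 9 sequences all loci had 1 precursor length. In 3 of these the precursors were identical throughout, and in 18 of the 23 sequences every locus had a different precursor. Among sequences whose lengths differed, PotatoMir1002596487 had precursors of 88 and 145 nt, PotatoMir1001726600 of 81 and 116 nt, and PotatoMir1006031670 of 118, 127 and 198 nt. These 3 were singled out after their values were seen.

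**Figure D2:**
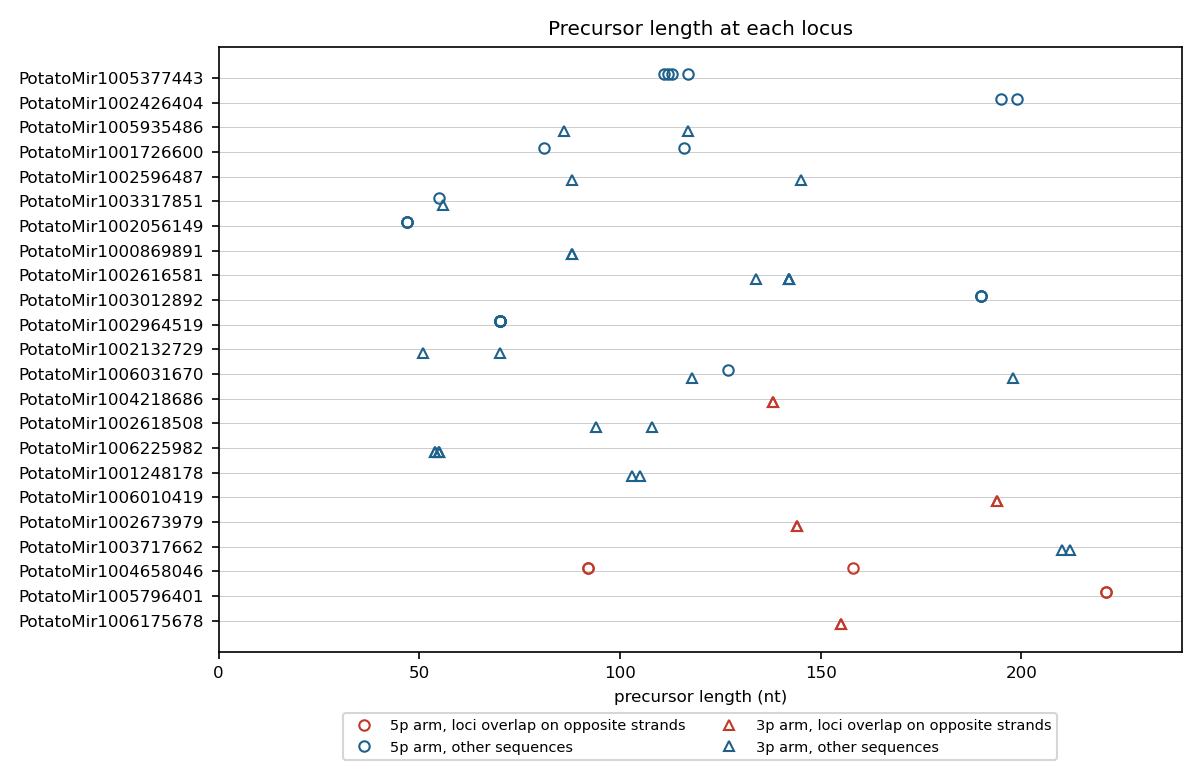
Precursor length in nt (horizontal axis) at each of the 61 loci, 1 row per sequence in order of reads, with circles for the 5p arm, triangles for the 3p arm and red for sequences whose loci overlap on opposite strands. Lengths run between 47 and 221 nt, and coinciding symbols are loci of 1 length.

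The sequence with the most loci had identical precursors at all of them, as did PotatoMir1000869891 and PotatoMir1002673979 with 2 loci each. PotatoMir1002964519 lay at 6 loci on 6 superscaffolds with 1 identical precursor of 70 nt, which is printed here from the first locus with the mature sequence in capitals.
PotatoMir1002964519 precursor: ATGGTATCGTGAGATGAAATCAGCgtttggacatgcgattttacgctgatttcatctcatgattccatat
On the minus strand it lay on PGSC0003DMB000000040 from 1641028 to 1641097, on PGSC0003DMB000000105 from 1693493 to 1693562, on PGSC0003DMB000000117 from 317747 to 317816 and on PGSC0003DMB000000510 from 84358 to 84427. On the plus strand it lay on PGSC0003DMB000000204 from 1089322 to 1089391 and on PGSC0003DMB000000279 from 555297 to 555366. The mature strand was on the 5p arm at all 6, with 1 unpaired base and 1 G:U pair in the fold. Its 10 reads (4.80 to 18.4) amount to 1.67 reads per locus. The star and the 22 nt between mature and star were also the same at all 6 loci, although the rule asked only for the 24 nt of the mature strand.

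PotatoMir1006225982 had 5 loci with short precursors of 54 and 55 nt that differed mainly in the star. The precursors are printed with the mature sequence, on the 3p arm, in capitals.
PGSC0003DMB000000101: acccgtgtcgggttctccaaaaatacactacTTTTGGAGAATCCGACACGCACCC
PGSC0003DMB000000106: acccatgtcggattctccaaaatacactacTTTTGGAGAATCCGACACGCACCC
PGSC0003DMB000000159: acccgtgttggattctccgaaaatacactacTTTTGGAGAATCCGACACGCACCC
PGSC0003DMB000000394: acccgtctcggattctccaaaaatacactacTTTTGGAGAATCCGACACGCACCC
PGSC0003DMB000000742: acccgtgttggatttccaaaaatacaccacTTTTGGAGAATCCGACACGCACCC
These loci run from 976273 to 976327 and from 1679672 to 1679725 on the plus strand, and from 1285193 to 1285247, from 69370 to 69424 and from 152736 to 152789 on the minus strand, in that order. Whole precursors were 90.7 to 96.4% identical between loci. Star ends were 79.2 to 91.7% identical, with 2 to 5 edits per pair, and no pair of loci had the same star. The loci left 3 to 5 mature bases unpaired, and the one on PGSC0003DMB000000106, with 5, was over the limit of 4 mismatches that the prediction allowed.

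PotatoMir1005377443, the member with the most reads, had 4 different precursors of 111 to 117 nt, all with the mature strand on the 5p arm. The star ends are printed with capitals at the 12 positions that vary among the 4 loci.
PGSC0003DMB000000010: GaCGTGtgTAtCTatttgttCaAC
PGSC0003DMB000000079: GaCACAtgTGtCAatttgttCaGC
PGSC0003DMB000000421: GaCACAtgTGtTTatttgttTaAT
PGSC0003DMB000000592: AaTGCAtgCGtATatttgttCaAT
The precursors run from 2005040 to 2005150 (plus strand), from 1639715 to 1639827 (minus), from 472124 to 472240 (minus) and from 252200 to 252311 (plus), in the order of the printed stars. Star ends were 66.7 to 79.2% identical between loci and middle parts, the stretch between mature and star, 56.5 to 83.1%. All 4 paired with the mature strand with 1 to 3 unpaired bases and, among the paired bases, 1 to 3 G:U pairs. The entry closest to any member was PotatoMir1005377406, which differed from PotatoMir1005377443 at 1 base (G18A, counted from the 5′ end of the member) and had 130 reads at 1 locus, on PGSC0003DMB000000204 from 363082 to 363143, also on the 5p arm.

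The 4 loci of PotatoMir1002616581 also differed in the star. They kept every mature base paired outside the last 2 nt, the 3′ overhang. The loci lay on the plus strand of PGSC0003DMB000000055 from 1002916 to 1003057, of PGSC0003DMB000000201 from 439580 to 439713, and of PGSC0003DMB000000252 from 449269 to 449410 and from 571860 to 572001. The star ends of the first 3 are printed with capitals at the 5 positions that vary, and the fourth had the same star as the third.
PGSC0003DMB000000055: ttaagttaaTTaTataaGatatAt
PGSC0003DMB000000201: ttaagttaaCCaCataaAatatGt
PGSC0003DMB000000252: ttaagttaaCCaTataaAatatGt
No mature base before this overhang was unpaired at any of the 4. The number of G:U pairs was 4 at the first locus, 0 at the second and 1 at each of the others. The 2 precursors on PGSC0003DMB000000252 were 98.6% identical, while the other pairs were 69.7 to 75.4% identical. The set thus held a close pair 122591 nt apart and more distant copies elsewhere.

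The other sequences with many reads had 2 precursors each. PotatoMir1002426404 lay on the plus strand of PGSC0003DMB000000140 from 1282895 to 1283093 and on the minus strand of PGSC0003DMB000000732 from 123044 to 123238. These precursors, of 199 and 195 nt, were 89.4% identical, with 83.3% in the star and 88.7% in the middle part. Both were outside the duplex limits in the fold, with 2 asymmetric bulges each where 1 was allowed. PotatoMir1005935486 lay on the minus strand of PGSC0003DMB000000015 from 1984842 to 1984958 and on the plus strand of PGSC0003DMB000000502 from 266683 to 266768. Its precursors, of 117 and 86 nt, were 70.1% identical, with 91.7% in the star and 52.2% in the middle part. The middle parts were 69 and 38 nt long, and this length difference alone lowers their identity.

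The precursors of PotatoMir1005935486 also held near copies of the mature sequence in the same orientation, in tandem. Their length difference of 31 nt is the length of 1 repeated unit. The closest copy at each locus is printed with capitals at bases identical to the mature sequence.
PGSC0003DMB000000015: TTGGAGGATTTGAAGAcTTaAACT
PGSC0003DMB000000502: TTGGAGGATTTaAAGAcTTCAACT
Each printed copy differed at 2 of 24 bases, and the one on PGSC0003DMB000000502 is the star end itself. The fold energies were weak, at -0.24 and -0.25 kcal/mol per base, against a median of -0.48 over the 61 loci. A copy with at most 6 differences was present at 8 of the 58 member loci long enough to hold one (13.8%), in 4 sequences, against 6 of 98 loci (6.12%) of 24 nt sequences at 1 locus. Besides PotatoMir1005935486 these were PotatoMir1006031670, with 1 to 6 differences, and PotatoMir1006010419 and PotatoMir1004658046, with none. In PotatoMir1004658046 the copy is the mature sequence of its other plus strand entry, so it is itself a listed locus. The 2 loci of PotatoMir1006010419 are 1 place listed on both strands. Loci of 1 sequence are therefore not separate counts, and the shares are only a description. The comparison of copies was added after the data were seen.

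Over the 61 pairs of precursors that share a mature sequence and an arm, the median identity was 94.5% (52.0 to 100%), against 86.7% over 201 pairs of 20 to 22 nt sequences. This median leans on PotatoMir1002964519, whose 6 loci give 15 of the pairs. With 1 median per sequence it was 89.7% over 22 sequences, against 85.4% over 20 sequences of 20 to 22 nt. Without pairs that overlap on opposite strands, the median per sequence was 76.2% over 17 sequences of the set, against 81.4% over 18 of 20 to 22 nt. The order of both groups therefore depended on these overlapping pairs and on the weighting. Identity includes the mature strand, which is the same by the rule.

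By the lowest identity among its pairs, 22 of the 23 sequences fell into 3 groups. PotatoMir1003317851 was left out, since its loci lie on different arms. Its 2 precursors were 32.1% identical end to end, a value held low because the shared mature sequence lies at opposite ends and cannot align. In 8 sequences with 22 loci every pair was at least 95% identical. Outside the overlapping ones these were PotatoMir1002964519 and PotatoMir1000869891, both at 100%, PotatoMir1003012892 at 99.5 to 100%, PotatoMir1002056149 at 97.9 to 100% and PotatoMir1003717662 at 96.7%. In 5 sequences the lowest value lay from 75 to 95%. In 9 sequences with 24 loci it was under 75%, down to 52.0% in PotatoMir1006031670 and 60.0% in PotatoMir1002596487. A difference in length alone lowers this identity, so a low value need not mean many changed bases. The precursors of PotatoMir1002596487 were 88 and 145 nt long. Those of PotatoMir1004658046, with a lowest value of 58.2%, were 92 to 158 nt and lie within each other at 1 place. Near-identical precursors and precursors differing widely in sequence or in length were thus both present.

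In canonical miRNA families the star is held by pairing to the mature strand, while the loop is not. Here, in the 56 pairs of loci with a middle part of at least 5 nt and a star of at most 30 nt, the star end had a median identity of 97.9% and the middle part 88.8%. The star was more alike in 27 pairs, the middle part in 11, and 18 pairs were equal, of which 15 were pairs of PotatoMir1002964519. Without pairs that overlap on opposite strands the medians were 91.7% for the star and 88.7% for the middle part, with counts of 21, 11 and 17. Without PotatoMir1002964519 they were 87.5 and 84.4%. In 179 pairs of 20 to 22 nt sequences the medians were 95.2% for the star and 70.0% for the middle part, with the star more alike in 163 pairs, the middle part in 8 and 8 equal. Pair counts of both groups lean on single sequences. In the 20 to 22 nt group these had up to 12 loci at 21 nt, 8 at 20 nt and 7 at 22 nt. Several of the 11 pairs of the set came from PotatoMir1006225982, with middle parts of 6 or 7 nt. With 1 median per member sequence, the star was more alike in most, and the middle part only in PotatoMir1002426404 and PotatoMir1003717662. Those with a more alike star include sequences with overlapping loci, whose star identity of 100% largely follows from 1 place listed on both strands. The list was selected on pairing of mature and star but not on the middle part. A more alike star thus follows in part from that selection, in both groups. Within the set, PotatoMir1001726600 had a star identity of 91.7% and a middle identity of 45.6%, and PotatoMir1002596487 had 88.5% and 42.1%. Their middle parts were 68 and 33 nt and 40 and 95 nt long, and these length differences alone hold the middle identity low. PotatoMir1003717662 had the opposite order, with 87.5% in the star and 97.6% in the middle part. These 3 were named after their values were seen.

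**Figure D3:**
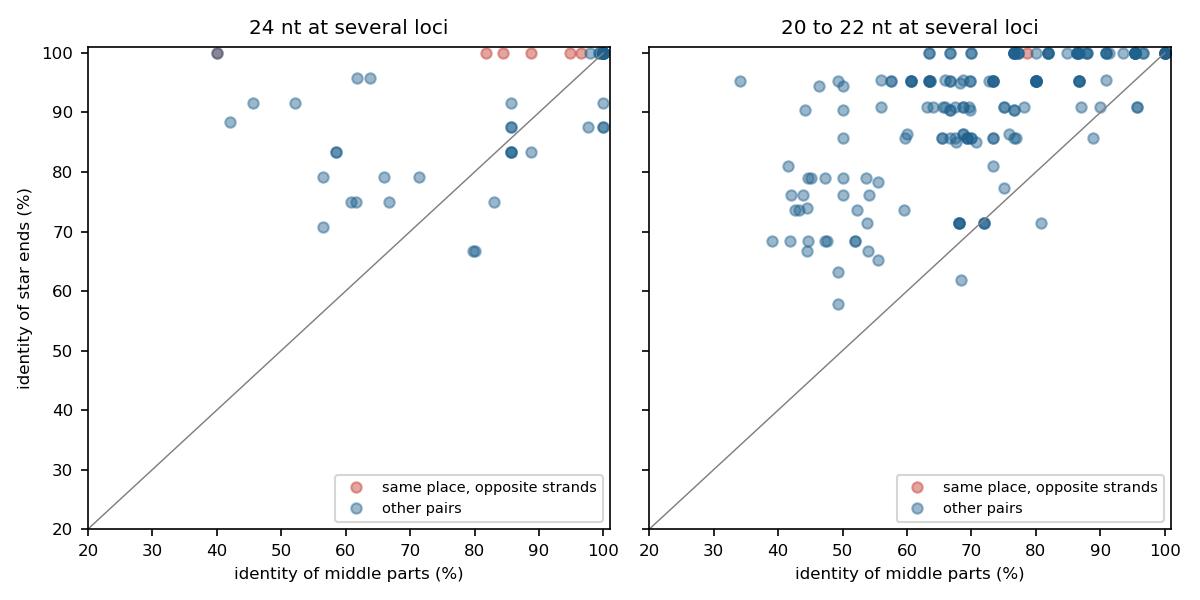
Identity of star ends (vertical axis, %) against identity of middle parts (horizontal axis, %) for pairs of loci with the same mature sequence; left 24 nt sequences at several loci (56 pairs), right 20 to 22 nt sequences at several loci (179 pairs), with red for pairs on opposite strands of 1 place and darker points where pairs coincide. On the grey line both are equal; 27 pairs lie above it on the left and 163 on the right.

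The 6 sequences whose loci overlapped on opposite strands were PotatoMir1004218686, PotatoMir1006010419, PotatoMir1002673979, PotatoMir1004658046, PotatoMir1005796401 and PotatoMir1006175678. They held 13 of the 61 loci at 6 places on 6 superscaffolds, so the 61 loci stood for 54 places. At each place the mature sequence was listed on the plus strand and again on the minus strand. The whole list held 2 further sequences of this kind, both of 21 nt, PotatoMir1003213190 and PotatoMir1005712016. Among sequences at several loci these were 2 of 15 at 21 nt, against 6 of 23 at 24 nt.

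PotatoMir1004218686 lay on PGSC0003DMB000000422 from 270359 to 270496 on the plus strand and from 270354 to 270491 on the minus strand. PotatoMir1006010419 lay on PGSC0003DMB000000951 from 25712 to 25905 (plus) and from 25707 to 25900 (minus). PotatoMir1002673979 lay on PGSC0003DMB000000056 from 1686240 to 1686383 (plus) and from 1686235 to 1686378 (minus). At these places the mature strand was on the 3p arm of both hairpins. PotatoMir1005796401 lay on PGSC0003DMB000000075 from 1993717 to 1993937 (plus) and from 1993712 to 1993932 (minus), on the 5p arm. PotatoMir1006175678 lay on PGSC0003DMB000000169 from 32070 to 32224 (plus) and from 32065 to 32219 (minus), on the 3p arm.

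PotatoMir1004658046 had 3 loci at 1 place, on PGSC0003DMB000000290. They ran from 800230 to 800387 and from 800296 to 800387 on the plus strand and from 800291 to 800382 on the minus strand, all on the 5p arm. The precursors are printed with the listed mature sequence in capitals.
plus strand, 158 nt: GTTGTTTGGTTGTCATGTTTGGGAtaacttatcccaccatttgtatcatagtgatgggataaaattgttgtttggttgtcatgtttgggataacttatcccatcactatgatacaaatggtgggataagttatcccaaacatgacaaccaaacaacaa
plus strand, 92 nt: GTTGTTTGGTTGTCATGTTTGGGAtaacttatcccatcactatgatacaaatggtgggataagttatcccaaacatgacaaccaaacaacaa
minus strand, 92 nt: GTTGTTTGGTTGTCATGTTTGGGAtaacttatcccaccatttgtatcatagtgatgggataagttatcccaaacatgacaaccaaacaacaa
The longer precursor contains the shorter one whole, with a second, unbroken copy of the mature sequence at bases 67 to 90. Both plus strand hairpins end in the same star, so 1 star was paired with either of 2 mature copies. The sequence had 1 read, which cannot be assigned to a copy or a strand. A second whole copy of the mature sequence was also found at bases 105 to 128 of both precursors of PotatoMir1006010419.

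PotatoMir1002673979 was the most symmetric of the overlapping sequences, with the same precursor on both strands. It is printed with the mature sequence in capitals.
PotatoMir1002673979 precursor: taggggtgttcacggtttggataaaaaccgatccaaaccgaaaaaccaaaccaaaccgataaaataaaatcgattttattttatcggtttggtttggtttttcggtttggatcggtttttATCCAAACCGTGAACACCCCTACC
This precursor of 144 nt was 97.2% identical to its own reverse complement and had a fold energy of -0.83 kcal/mol per base. It had 2 reads (0.242 to 7.22).

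**Figure D4:**
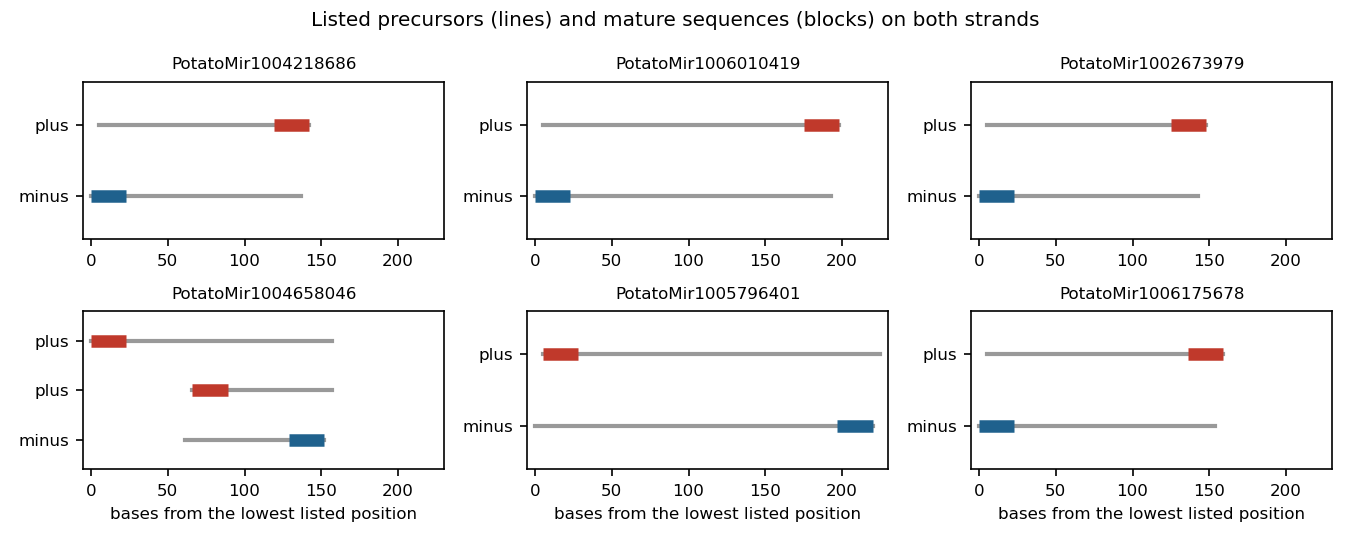
Listed precursors (grey lines) and mature sequences (red blocks on the plus strand, blue blocks on the minus strand) at the 6 places with overlapping loci, in bases from the lowest listed position. In 5 of the 6 places the blocks lie at opposite ends on the 2 strands. PotatoMir1004658046 has 3 precursors, of 158, 92 and 92 nt, and its second plus strand block lies inside the place.

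Overlapping loci were compared with the others in the set, as a description. In the 13 overlapping loci the identity of a precursor to its own reverse complement had a median of 89.7% (82.9 to 97.2%), against 69.8% (35.4 to 90.1%) in the 48 others. A place that lists the mature sequence on both strands holds that sequence and its reverse complement. Pairing of the mature strand therefore follows from the choice of these loci. The choice also bears on identity and fold energy through both ends, but does not fix the stretch between them. All these values are given only as a description. The fold energy had a median of -0.73 kcal/mol per base (-0.83 to -0.59), against -0.41 (-0.82 to -0.14). All 13 loci had every mature base outside the 3′ overhang paired, against 9 of 48 others. Precursors had a median of 155 nt, against 98.5 nt.

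Reads of the overlapping sequences were few. They had 1 to 8 reads with a median of 1.5 and 16 in all, against 1 to 537 with a median of 17 and 1712 in all for the 17 other sequences. The ranges overlapped, and PotatoMir1003717662, which did not overlap, also had 1 read. It lay on the plus strand of PGSC0003DMB000000006 and PGSC0003DMB000000015 with precursors of 210 and 212 nt, which were 87.1 and 90.1% identical to their own reverse complements. Their fold energies were -0.78 and -0.82 kcal/mol per base, within the range of the overlapping loci.

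The positions on the 2 strands did not fully match the sequences. By position, the minus strand precursor of these places began 5 bases below the plus strand precursor of the same length, while the sequences aligned without a difference when it began 2 bases below. The same gap of 3 bases was found in all 7 opposite-strand pairs of the set and in both 21 nt sequences, and the pair on 1 strand at PGSC0003DMB000000290 showed a gap of 0. Which strand's positions are shifted cannot be told without the genome, so positions are given as listed and may be off by 3 bases on 1 strand.

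Both sequences with loci on either arm had a different precursor at every locus. PotatoMir1003317851, with 50 reads, lay on the plus strand of PGSC0003DMB000000151 from 131721 to 131775 on the 5p arm and of PGSC0003DMB000000163 from 966 to 1021 on the 3p arm. The precursors are printed with the mature sequence in capitals.
PGSC0003DMB000000151: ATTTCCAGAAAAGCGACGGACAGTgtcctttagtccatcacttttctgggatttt
PGSC0003DMB000000163: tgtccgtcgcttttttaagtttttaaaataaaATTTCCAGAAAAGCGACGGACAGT
The first left 5 mature bases unpaired, over the limit of 4, and the second left 2 unpaired with 1 asymmetric bulge.

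PotatoMir1006031670, with 9 reads, lay on the plus strand of PGSC0003DMB000000117 from 1478171 to 1478297 (5p arm), on the minus strand of PGSC0003DMB000000172 from 260186 to 260303 (3p arm) and on the plus strand of PGSC0003DMB000000417 from 492627 to 492824 (3p arm). It is rich in short TTTAG-type repeats. The heptamer tttaggg, the unit of the telomere repeat of Arabidopsis and most other plants, occurred 6 times in the first precursor, 7 times in the third and not in the second. The motif was chosen after the sequences were seen. Both strands of all 304 distinct precursors were searched, and only these 2 held it (0.658%). The energies of these 2, -0.14 and -0.17 kcal/mol per base, were the weakest of the set. In the third, the stretch taken as the star ran to the 5′ end of the precursor and was 121 nt long. Most of it lay outside the pairing with the mature strand.

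Some members shared stretches of sequence with other 24 nt entries. The 12 nt run aagcgacggaca, searched on both strands, occurred in 5 of the 121 sequences of 24 nt (4.13%), of which 2 were members. The run was chosen after the sequences were seen. They are printed with the run in capitals.
PotatoMir1003317851: atttccagaaAAGCGACGGACAgt
PotatoMir1006010419: tttaagaAAGCGACGGACAatgtc
PotatoMir1000018741: aaaaAAGCGACGGACAgcgtctct
PotatoMir1000213714: aaacccagaaAAGCGACGGACAgt
PotatoMir1000747591: AAGCGACGGACAacatctcttagt
The members had 50 and 3 reads, and the 3 at 1 locus had 11, 10 and 56 reads in the order printed. In the order printed the run starts at base 11, 8, 5, 11 and 1. PotatoMir1002618508 was also nearly the same as PotatoMir1000971035, which had 13 reads at 1 locus and shared a run of 23 nt, shifted by 1 base.

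The first base was A in 13 of 23 sequences (56.5%, Wilson interval 36.8 to 74.4%), against 68 of 98 sequences of 24 nt at 1 locus (69.4%, 59.7 to 77.6%). Both intervals overlap. In Arabidopsis a 5′ A is typical of small RNAs bound by ARGONAUTE 4. T was first in 7 members, G in 2 and C in 1. Among members A was first in 12 of the 17 sequences without opposite-strand overlap and in 1 of the 6 with it. With at least 10 reads it was first in 9 of 11 members (81.8%), against 41 of 58 sequences at 1 locus (70.7%). Over 20 to 22 nt sequences at several loci it was first in 4 of 20, and over the list in 102 of 222. The GC content of the mature strand had a median of 33.3%, against 37.5% for 24 nt sequences at 1 locus and 47.6% for 20 to 22 nt sequences at several loci.

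In the fold, 55 of 61 loci (90.2%) met the duplex limits, against 76 of 98 (77.6%) for 24 nt sequences at 1 locus. The counts were 65 of 81 for 20 to 22 nt sequences at several loci and 266 of 324 over the list. All 13 overlapping loci met them, and without these the share was 42 of 48 (87.5%). The locus of PotatoMir1006031670 with the 121 nt stretch is counted as meeting them, since the outer ends of the duplex were not checked. The list had been selected on such limits, so these shares describe the fold used here. The 6 loci outside were both loci of PotatoMir1002426404 and of PotatoMir1000869891, with 2 asymmetric bulges each, and 1 locus each of PotatoMir1003317851 and PotatoMir1006225982, with 5 unpaired bases. Outside the 3′ overhang, the mature strand was wholly paired without any G:U pair at 15 of 61 loci. For 24 nt sequences at 1 locus this held at 5 of 98. However, 13 of the 15 were overlapping loci, whose pairing follows from their choice. Among the 48 other member loci there were 2. The median fold energy was -0.48 kcal/mol per base, against -0.39 for 24 nt sequences at 1 locus. Without the overlapping sequences it was -0.41, so the difference lay mostly in them.

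**Figure D5:**
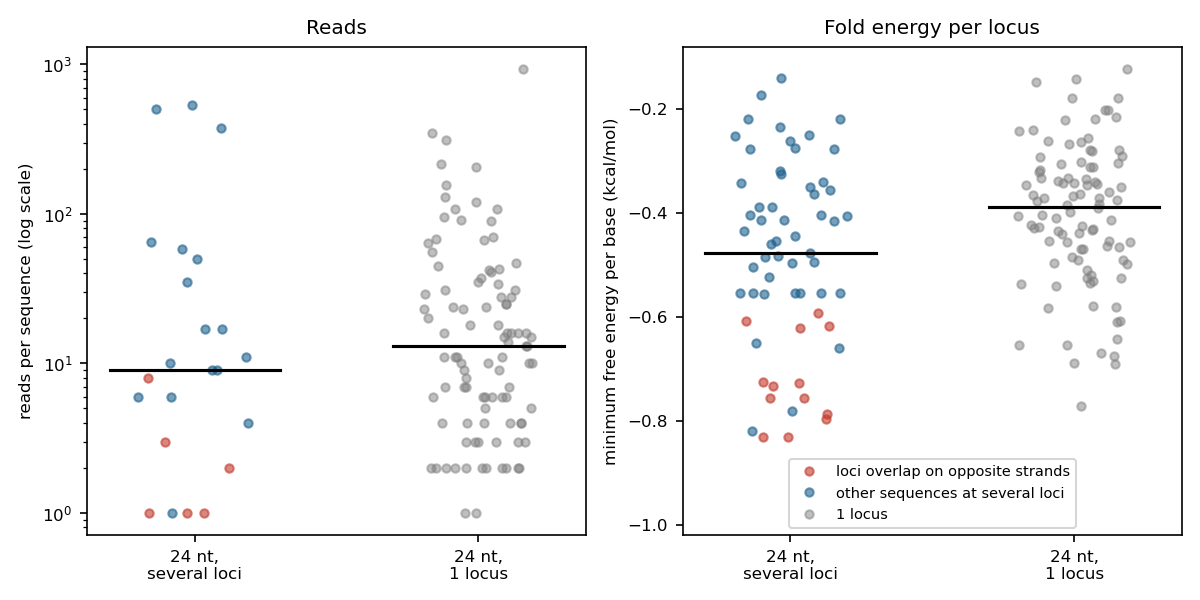
Reads per sequence (left, log scale) and fold energy per base of each locus (right, kcal/mol) for 24 nt sequences at several loci and at 1 locus; points are sequences or loci, red those with loci overlapping on opposite strands, and black lines are medians. Medians are 9 and 13 reads, and -0.48 and -0.39 kcal/mol per base.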

How the data were processed

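Small RNA libraries were sequenced from 12 samples, and per the labels their adaptors were removed with Cutadapt 1.1. The authors then removed structural RNAs, aligned non-redundant sequences to DM superscaffolds with Bowtie without mismatches and left out sequences with too many positions. They folded the flanking windows with RNAfold and predicted miRNAs with miRDeep-P. Redundant predictions were taken out, and limits on the duplex were applied. The deposited list holds positions, strand, precursor, mature sequence and a read number, which is the count of reads identical to the mature sequence over all libraries, not normalized. It was used as deposited. The study then removed sequences with fewer than 5 reads, a step not applied in this list. The depth of single libraries is unknown, and no value of a single library was used.

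Members were all entries with a 24 nt mature sequence found identically in at least 2 entries. The members and the lists were chosen with earlier results of these data known. Reads were counted once per sequence, with 95% Poisson intervals, and shares have 95% Wilson intervals. Both cover counting error only. RNAfold of ViennaRNA 2.7.2 gave the fold of each precursor at 37 °C. The star began opposite the loop side of the mature strand in that fold, offset by 2 nt, and ran to the other end of the precursor. An unpaired base at this boundary was replaced by the closest paired one, up to 5 nt away. The duplex limits allowed 4 mismatches and 1 asymmetric bulge, whose size could not exceed 2 nt. G:U pairs counted as paired. Unpaired bases and G:U pairs were counted without the last 2 bases of the mature strand, the 3′ overhang. Identity was 1 minus the edit distance over the longer precursor, or the longer part for stars and middle parts, so a difference in length lowers it.

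No test was made. The list gives 1 pooled number per sequence, and loci are not replicates. Every member sequence was named with its reads and loci, and positions were given for sequences with at least 4 loci, the 3 with the most reads, and those with opposite-strand overlaps or loci on both arms. Alternatives changed the minimum read number, the counting unit, the treatment of overlapping loci, the length class, the fold temperature, the star end, G:U pairs and the weighting of pairs. Calculations used Python 3.11.15, NumPy 2.4.6, SciPy 1.17.1 and Matplotlib 3.10.9, and the procedures were tested on simulated data. A reference gene table of another potato assembly was not used, since its sequence names differ.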

Additional observations from a re-analysis of the deposited data

How the results depend on the processing

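The rule gave 61 loci and 23 sequences. With at least 10 reads it gave 32 loci and 11 sequences, and the median reads were then 50, the share starting with A 81.8% and the median precursor identity 99.5%. Reads divided by the number of loci had a median of 3.67, in place of 9 per sequence. With 1 median per sequence the precursor identity was 89.7%, in place of 94.5% over pairs. Folding at 20 °C gave a median energy of -0.63 kcal/mol per base, in place of -0.48, as lower temperature makes every pair stronger. With overlapping loci counted as 1 before the rule, there were 48 loci and 17 sequences, and 14.0% of 24 nt sequences lay at several loci, in place of 19.0%. With at least 5 reads there were 46 loci and 16 sequences. With G:U pairs as mismatches 41 loci met the duplex limits, in place of 55. Leaving out overlapping sequences, leaving out PotatoMir1002964519 and, for star ends and middle parts, leaving out overlapping pairs were alternatives added after the data were seen. Without overlapping sequences the median was 17 reads, and 70.6% started with A. Without PotatoMir1002964519 the median precursor identity was 91.0%, that of star ends 87.5% and that of middle parts 84.4%. Read numbers under 10 have wide counting intervals, and a single pooled list cannot show how they vary between libraries, tissues or plants.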

Other observations

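Both 21 nt sequences with opposite-strand overlaps, chosen after the values were seen, had read numbers within the range of the 6 overlapping 24 nt sequences. PotatoMir1003213190 had 1 read, and its precursors on PGSC0003DMB000000221 were 97.6% identical to their own reverse complements. PotatoMir1005712016 had 4 reads, and its precursors on PGSC0003DMB000000204 were 84.5% identical to theirs.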
